A study of Mus musculus with 8 samples.

Results

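The genes described here are 9 genes of iron storage, uptake and sensing, taken by symbol from the 22609 genes of the deposited count tables: Tfrc, Trf, Fth1, Ftl1, Hfe, Ireb2, Aco1, Bmp6 and Cp. All 9 were found, and all 9 passed the filter on low counts that left 13944 genes for testing. They were measured by RNA-Seq in the renal cortex of 4 aged and 4 young mice. The mice of both groups were untreated males of the C57BL6 strain, labelled 30 months of age in the aged group and about 5 months in the young group, and the study's methods put the mean age of the aged mice somewhat higher than the labels do. The study asked which genes differ in expression between the cortex of aged and young kidneys. Total RNA was depleted of ribosomal RNA, and strand-specific libraries were made from it. The sum of counts per mouse ranged from 14820804 to 19018543 in the aged group and from 15152597 to 19821429 in the young group, and no pair of libraries agreed within sampling noise.

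Iron travels in the blood bound to transferrin, which cells take up through the transferrin receptor, and iron that is not used at once is held inside the shell of ferritin, built of heavy and light chains. Cells sense their own iron through the iron regulatory proteins, which in low iron bind a hairpin in messenger RNAs called the iron-responsive element: bound near the start of a ferritin transcript the proteins block its translation, and bound behind the coding sequence of the receptor transcript they protect it from decay. Body iron is set by the hormone hepcidin from the liver, whose gene is driven by bone morphogenetic proteins, and the proximal tubule of the kidney recovers filtered transferrin and iron from the urine.

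The hairpin letters were found in 3 of the 9 genes, and they are shown because they tie the receptor and both ferritin chains to the same iron sensors. The search was run on the transcript strand of GENCODE transcripts in the mm9 build, for a C, any 5 bases, CAGTG and then any base but G, with all 5 base pairs of the upper stem, G with T included. In the lines below, the capitals mark the bulged C and the first bases of the loop, CAGTG.
Tfrc site 1: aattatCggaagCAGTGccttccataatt
Tfrc site 2: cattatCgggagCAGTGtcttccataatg
Tfrc site 3: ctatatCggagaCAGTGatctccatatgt
Tfrc site 4: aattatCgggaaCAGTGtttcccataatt
Fth1: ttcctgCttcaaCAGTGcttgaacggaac
Ftl1: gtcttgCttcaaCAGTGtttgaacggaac
Slc40a1: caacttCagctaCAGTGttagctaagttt
The 4 sites of Tfrc lie in the 3′ UTR, in exon 19 of the gene on the plus strand, at chr16:32631305-32631333, chr16:32631684-32631712, chr16:32631749-32631777 and chr16:32631796-32631824. The site of Fth1 lies in the 5′ UTR, in exon 1 on the plus strand, at chr19:10057222-10057250. The site of Ftl1 lies in the 5′ UTR, in exon 1 on the minus strand, at chr7:52715149-52715177. Slc40a1 encodes ferroportin, the iron exporter of the cell, and is not one of the 9 genes; its site lies in the 5′ UTR, in exon 1 on the minus strand, at chr1:45982310-45982338. Among all genes with an annotated 5′ UTR, 14 of 19815 (0.0707%) held the same letters there, and in the 3′ UTR it was 82 of 19899 (0.412%). With at least 4 pairs in the lower stem as well, the numbers were 7 genes (0.0353%) and 10 genes (0.0503%), and Fth1, Ftl1, Slc40a1 and Tfrc were among them. For the other 6 genes the letters were not in the UTRs searched. A match describes the letters, not binding, and an element that departs from these letters or pairs would be missed.

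**Figure D1:**
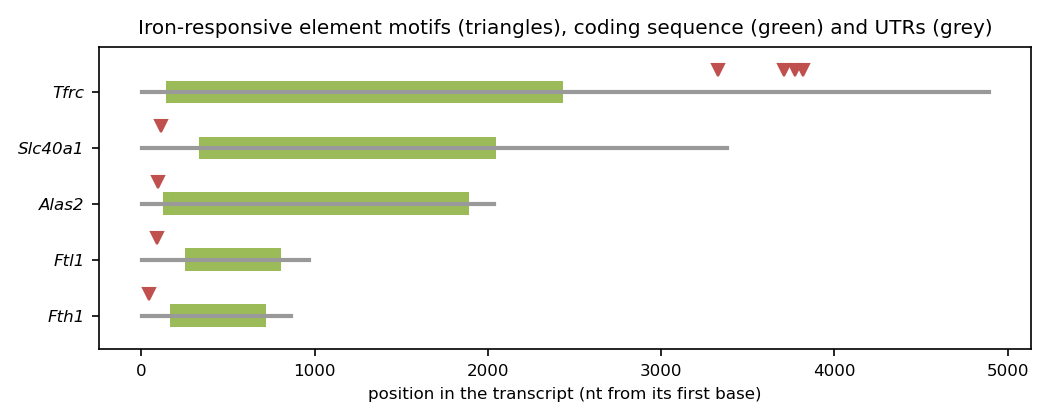
Map of transcripts with the hairpin letters in the mm9 annotation, with the position in nt from the first base on the x axis, the coding sequence in green and the UTRs in grey. Each triangle is 1 match: the 4 of Tfrc lie behind the coding sequence, and those of the other transcripts shown lie before it.

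Aged mouse 1 stood apart from the other aged mice. On the first principal component of log2 CPM over all tested genes, which held 48.1% of the variance, it lay at -71.5, with the other aged mice between -16.3 and 2.26 and the young mice between 21.6 and 26.2. Its summed level of 7 markers of the S1 and S2 segments of the proximal tubule was 9650 CPM (counts scaled by TMM to a common library total), against 19750 to 22159 CPM in the other aged mice and 19549 to 24164 CPM in the young mice. Where leaving out aged mouse 1 moved a change by over 1.5 times or altered a call, the value without it is given as well. Of the aged mice, aged mouse 4 lay nearest to the young mice on that component, at 2.26. The markers of the proximal tubule, thick ascending limb, distal tubule, collecting duct and podocyte each summed to at least 299 CPM in every mouse. The haemoglobin genes Hba-a1, Hba-a2, Hbb-b1 and Hbb-b2 were listed at 0 in all 8 mice, so the amount of blood in the samples was not measured by them.

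Of the 9 genes, 1 rose in the aged mice and 0 fell, where a call needed both an adjusted p under 0.05 in the quasi-likelihood test of edgeR (Benjamini-Hochberg over all 13944 genes) and a change of more than 1.5-fold. In the same test 287 genes of all those tested (2.06%) were called, 163 higher (1.17%) and 124 lower (0.889%). The gene that rose was Trf, transferrin. The log2 fold change of aged over young mice was above 0 for 4 of the 9 genes and below 0 for 5, and its median was -0.14, beside 0.03 over all tested genes. The median of the 9 without aged mouse 1 was -0.09, beside 0.02 over all tested genes. At an unadjusted p below 0.05 there were 4 of the 9 genes, against 25.5% of all genes, and the values of aged and young mice did not overlap for 2 of the 9, Trf and Fth1, against 18.9% of all genes (8.85% with the aged mice above and 10% with them below). The share without overlap, 22.2%, was close to that background. Because the cortex is a mixture of cell types, fewer cells of a type and less RNA per cell cannot be told apart in any of these values.

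**Figure D2:**
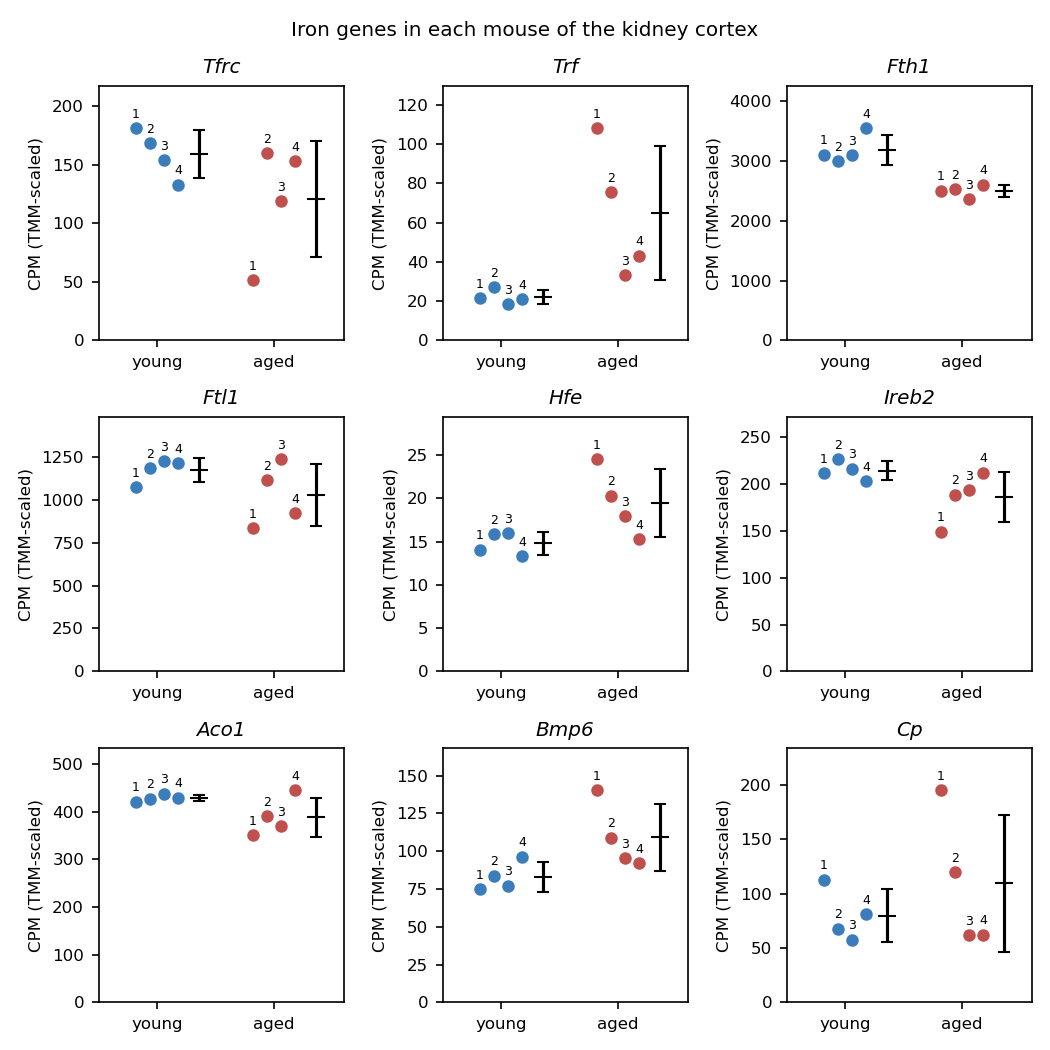
CPM of each of the 9 genes by mouse on a linear axis from 0, with each point 1 mouse, its number beside it, and the bar the mean ± SD of 4 mice. The aged mice lie above all young mice for Trf and below all young mice for Fth1. Aged mouse 1 is the lowest of all for Tfrc, Ftl1, Ireb2 and Aco1 and the highest of all for Trf, Cp, Hfe and Bmp6.

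Transferrin, the iron carrier of the plasma, made mostly by the liver, was the gene with the largest difference. Trf (chr9:103106331-103132774, minus strand, 17 exons) was at 107.9, 75.3, 33.1 and 43.1 CPM in aged mice 1 to 4, against 21.5, 27.0, 18.4 and 21.1 CPM for young mice 1 to 4. Every aged mouse was above every young mouse, and the spread among the aged mice was much the wider. The means were 64.9 ± 33.9 CPM (SD, n = 4) in the aged group and 22.0 ± 3.61 CPM (SD, n = 4) in the young group, a ratio of 2.95. Its log2 fold change was 1.56 (SE 0.34), with an adjusted p of 0.0490 by the edgeR quasi-likelihood test (Benjamini-Hochberg), which placed it 379th among the 13944 genes.

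The rise of Trf did not rest on aged mouse 1. Without that mouse the log2 fold change of Trf was 1.19 (SE 0.26) and the adjusted p 0.0366 by the same edgeR test, in a fit that called 444 genes (3.17% of 14016), 225 higher (1.61%) and 219 lower (1.56%). The call was close to the threshold all the same. By the same edgeR test the adjusted p of Trf was 0.0809 without aged mouse 2, and without young mouse 1, 2, 3 or 4 it was 0.138, 0.105, 0.130 and 0.142, while the log2 fold change stayed between 1.19 and 1.77 over all alternatives. Calls over all genes fell from 287 to 119 without aged mouse 2. Without young mouse 1, 2, 3 or 4 they fell to 8, 35, 14 and 12. DESeq2 gave Trf an adjusted p of 2.18e-04 in a fit that called 6.26% of all genes (3.49% higher and 2.78% lower), and limma-voom gave 0.0262. A second annotated gene model of the same name overlaps Trf on the same strand, so the count belongs to the locus rather than to 1 of the models.

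Markers of other cell types are given here beside Trf. The summed level of 6 markers of lymphocytes and plasma cells, 4 of them tested, was 51.6 to 122.9 CPM in aged mice and 26.4 to 39.8 CPM in young mice, with no overlap, and 1 of the 4 tested, Igj, was called higher. The summed level of 4 markers of the S3 segment of the proximal tubule was 900 to 3381 CPM in aged mice and 3709 to 5341 CPM in young mice, again with no overlap and with 0 of 4 called. Over 5 markers of injured proximal tubule, 4 of them tested, the sums ran from 23.6 to 45.1 CPM in aged mice and from 13.7 to 24.2 CPM in young mice, and aged mouse 1 held the highest. The sums of 9 macrophage markers overlapped, at 98.4 to 206.1 CPM and 112.4 to 168.0 CPM, with Csf1r called lower. Those of 7 endothelium markers overlapped too, at 481.7 to 706.7 CPM in aged mice and 547.5 to 596.2 CPM in young mice. For 6 markers of fibroblasts and mesangium the sums were 246.2 to 393.0 CPM and 331.1 to 415.7 CPM, again with overlap. In the lists of endothelium and of fibroblasts and mesangium 0 were called. None of the lists given here beside Trf had a marker at 0 in all mice. Their part in the levels of Trf and of the other iron genes was not tested.

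The receptor that takes transferrin into cells did not pass the test. Tfrc (chr16:32609006-32632880, plus strand, 19 exons) was at 51.4 CPM in aged mouse 1 and at 159.6, 118.8 and 152.8 CPM in aged mice 2 to 4, beside 180.9, 168.4, 153.8 and 132.8 CPM in young mice 1 to 4. Aged mouse 1 held the lowest value of all 8, aged mouse 3 lay just below the young mice, and aged mice 2 and 4 lay among them. Its change on the log2 scale was -0.40 (SE 0.30), with an adjusted p of 0.420 by edgeR's quasi-likelihood test. Without aged mouse 1 it was -0.15 (SE 0.13), with an adjusted p of 0.516 by edgeR, so the larger part of the difference lay in 1 mouse.

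Counts of Trf per count of Tfrc, a description that sets the carrier beside its receptor in each mouse, were 2.10, 0.472, 0.279 and 0.282 for aged mice 1 to 4. For young mice 1 to 4 they were 0.119, 0.160, 0.120 and 0.159. All 4 aged mice were above all 4 young mice. In aged mouse 1 both terms moved the ratio the same way, whereas in aged mice 2 and 4 the level of Tfrc lay within the range of the young mice.

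Hfe, a relative of the class I histocompatibility proteins that binds the transferrin receptor and takes part in hepcidin control, was the gene of the set with the lowest CPM. Hfe (chr13:23793903-23802723, minus strand, 6 exons) was at 24.5, 20.3, 18.0 and 15.3 CPM in aged mice 1 to 4, against 14.1, 15.9, 16.0 and 13.3 CPM for young mice 1 to 4. Aged mice 1 to 3 were above every young mouse, and aged mouse 4 was not. Its log2 fold change was 0.40 (SE 0.15), with an unadjusted p of 0.0257 and an adjusted p of 0.144 by edgeR's quasi-likelihood test, so it did not pass.

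Ferritin transcripts were the most abundant of the set, and neither chain passed the test. Fth1, the heavy chain, which oxidises iron as it enters the shell (chr19:10057193-10059582, plus strand, 4 exons), was at 2500, 2525, 2357 and 2601 CPM in aged mice 1 to 4. In young mice 1 to 4 it was at 3100, 2992, 3088 and 3539 CPM. Each aged mouse was below each young mouse, and aged mouse 1 lay within the range of the other aged mice. The means were 2496 ± 102 CPM (SD, n = 4) in the aged group and 3180 ± 244 CPM (SD, n = 4) in the young group, a ratio of 0.785.

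The log2 fold change of Fth1 was -0.35 (SE 0.11), with an unadjusted p of 0.0115 and an adjusted p of 0.103 by edgeR's quasi-likelihood test. It missed the adjusted threshold, and the fold was also smaller than 1.5. Without aged mouse 1 the log2 fold change was -0.35 and the adjusted p 0.0676 by edgeR. DESeq2 gave an adjusted p of 5.62e-04 for Fth1, and the fold was below the threshold there too.

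Ftl1, the light chain, which helps iron to settle in the core of the shell (chr7:52713314-52715254, minus strand, 4 exons), was at 835.9, 1113, 1235 and 920.7 CPM in aged mice 1 to 4, against 1072, 1183, 1224 and 1213 CPM for young mice 1 to 4. Aged mice 1 and 4 were below every young mouse, and aged mouse 3 was above every young mouse. As a log2 fold change this was -0.19 (SE 0.14), with an adjusted p of 0.393 by edgeR's quasi-likelihood test, and without aged mouse 1 it was -0.11 (SE 0.11), with an adjusted p of 0.579 by edgeR. The level of Ftl1 is uncertain: 95.5% of the 100-nt stretches of its transcript also occur at 98% identity or more elsewhere in mm9, at 4 other loci, and the gene model AC151602.1 overlaps it on the same strand. Of the other 8 genes, Bmp6 had 0.277% of such stretches at 1 locus, and the rest had 0. Entries set aside in counting as aligned to more than 1 place made up 34.3% to 39.1% of the totals of the tables, which need not count each read pair once.

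The iron sensors that bind the hairpin letters did not pass the test. Ireb2, iron regulatory protein 2, which is degraded when iron is plentiful (chr9:54711562-54760341, plus strand, 22 exons), was at 149.0, 188.4, 193.5 and 211.8 CPM in aged mice 1 to 4, against 211.6, 226.0, 216.1 and 202.6 CPM for young mice 1 to 4. Aged mice 1 to 3 lay below every young mouse, and aged mouse 4 among them. The difference came to a log2 fold change of -0.21 (SE 0.11), with an adjusted p of 0.268 by edgeR's quasi-likelihood test, and without aged mouse 1 it was -0.11 (SE 0.07), with an adjusted p of 0.352 by edgeR.

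Aco1, iron regulatory protein 1, which is an aconitase of the cytosol while it holds an iron-sulphur cluster (chr4:40090114-40146042, plus strand, 21 exons), was at 350.3, 390.3, 369.9 and 444.9 CPM in aged mice 1 to 4. In young mice 1 to 4 it was at 421.3, 427.8, 437.5 and 429.2 CPM, the narrowest range of the 9 genes relative to its level. Aged mouse 4 was above every young mouse and the other aged mice were below every young mouse. Its change on the log2 scale was -0.14 (SE 0.09), with an adjusted p of 0.360 by edgeR's quasi-likelihood test, and without aged mouse 1 it was -0.09 (SE 0.08), with an adjusted p of 0.489 by edgeR.

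Bmp6 encodes the bone morphogenetic protein that signals the iron store to the hepcidin gene. Bmp6 (chr13:38436995-38592183, plus strand, 8 exons) was at 140.2, 109.0, 95.4 and 92.0 CPM in aged mice 1 to 4, against 74.8, 83.7, 77.1 and 96.4 CPM for young mice 1 to 4. Aged mice 1 and 2 were above every young mouse, and young mouse 4 was above aged mice 3 and 4. As a log2 fold change this was 0.39 (SE 0.14), with an unadjusted p of 0.0233 and an adjusted p of 0.138 by edgeR's quasi-likelihood test. Without aged mouse 1 it was 0.25 (SE 0.10), with an adjusted p of 0.166 by edgeR.

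Cp encodes ceruloplasmin, the copper protein of plasma that oxidises iron so that transferrin can bind it. Cp (chr3:19857054-19909145, plus strand, 20 exons) was at 194.9, 119.6, 61.9 and 62.2 CPM in aged mice 1 to 4, against 112.8, 67.6, 57.5 and 81.1 CPM for young mice 1 to 4. Aged mice 1 and 2 held the highest values, and aged mice 3 and 4 lay within the young range. The difference came to a log2 fold change of 0.46 (SE 0.38), with an adjusted p of 0.461 by edgeR's quasi-likelihood test, and without aged mouse 1 it was 0.02 (SE 0.29), with an adjusted p of 0.966 by edgeR.

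**Figure D3:**
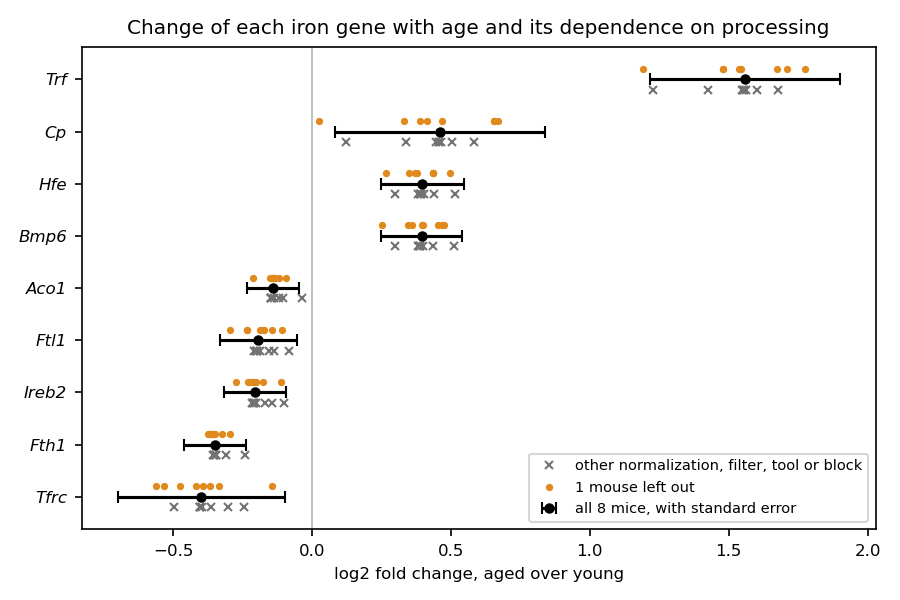
Log2 fold change of aged over young mice for each of the 9 genes, with the black point and bar the estimate and standard error over all 8 mice, orange points the fits with 1 mouse left out, and grey crosses the other settings. Trf lies between 1.19 and 1.77 in every fit, and the estimate of Cp runs from 0.02 to 0.67.

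Per kb of transcript, the level of Fth1 was the highest in both groups and that of Hfe the lowest. In young mice the mean was 3672 ± 282 CPM per kb for Fth1, 1212 ± 71.6 for Ftl1, 98.6 ± 1.53 for Aco1 and 36.9 ± 1.68 for Ireb2 (SD, n = 4 each). Below these came Tfrc at 32.5 ± 4.23, Bmp6 at 24.8 ± 2.89, Cp at 17.5 ± 5.27, Trf at 8.56 ± 1.40 and Hfe at 8.39 ± 0.745 CPM per kb (SD, n = 4 each). The mice of neighbours in this order overlapped for Ireb2 and Tfrc, Tfrc and Bmp6, Bmp6 and Cp, and Trf and Hfe.

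In aged mice the mean was 2882 ± 118 CPM per kb for Fth1, 1060 ± 187 for Ftl1 and 89.4 ± 9.37 for Aco1 (SD, n = 4 each), and these stood clear of the genes after them. The order then ran through Bmp6 at 32.6 ± 6.55, Ireb2 at 32.0 ± 4.55, Trf at 25.2 ± 13.2, Tfrc at 24.7 ± 10.1, Cp at 24.0 ± 13.8 and Hfe at 11.04 ± 2.22 CPM per kb (SD, n = 4 each), with each overlapping the next. Trf thus stood beside Hfe in the young mice and among Ireb2, Tfrc and Cp in the aged mice.

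The other genes of iron handling were taken as 7 lists by role, with 107 genes in the tables and 94 tested. Of these 94, 1 rose and 2 fell, beside 1.17% of all tested genes called higher and 0.889% called lower. The median log2 fold change was near 0, and 47 lay above 0 and 47 below. The gene that rose was Trfr2, the second transferrin receptor, which senses the iron load of transferrin. Trfr2 passed the filter on low counts through the aged mice alone. The genes that fell were Slc39a14, a metal carrier that takes up iron not bound to transferrin, and Gclm, a subunit of the enzyme that starts glutathione synthesis. Groups did not overlap for 10 genes (10.6%) with the aged mice above and 16 (17.02%) with the aged mice below, against 8.85% and 10% of all tested genes. With aged mouse 1 left out, Steap3, a ferrireductase named after its values were seen, with a log2 fold change of -0.65 (adjusted p 0.0421 by edgeR), was called as well. That fit called 1.61% of all genes higher and 1.56% lower.

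Trfr2 belongs to the list on hepcidin and bone morphogenetic protein signalling, in which 24 genes were in the tables and 19 were tested. Trfr2 was at 2.55, 1.496, 1.18 and 0.926 CPM in aged mice 1 to 4, against 0.493, 0.370, 0.544 and 0.236 CPM for young mice 1 to 4, and every aged mouse was above every young mouse. Its log2 fold change was 1.90 (SE 0.41), with an adjusted p of 0.0461 by edgeR's quasi-likelihood test and 0.0386 without aged mouse 1. The level was low, from 4 to 8 counts in young mice and from 17 to 52 in aged mice. The young counts all lay under the filter's minimum count of 10, so Trfr2 was tested only through its aged mice, where it was higher. The lack of overlap follows from this and is no further evidence of a rise.

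In this list 1 gene rose and 0 fell, the log2 fold change was above 0 for 17 of the 19, and its median was 0.22, beside 7545 of 13944 (54.1%) above 0 and a median of 0.03 over all genes. Aged mouse 1 lay above the mean of the other aged mice for 16 of the 19 (84.2%), beside 49.1% of all genes. Without it, 16 of the 19 were above 0 and the median was 0.11. Id1, Id3 and Atoh8, which bone morphogenetic proteins switch on, were picked after their values were seen. Their log2 fold changes were 1.15 (SE 0.50), 1.23 (SE 0.33) and 1.07 (SE 0.29), and none passed, with adjusted p of 0.191, 0.0718 and 0.0738 by edgeR. With aged mouse 1 left out they were 0.40 (SE 0.29), 0.82 (SE 0.20) and 0.90 (SE 0.28), with adjusted p of 0.411, 0.0508 and 0.0890 by edgeR. Smad6 and Smad7, which the same signal switches on, were at log2 fold changes of 0.30 (SE 0.18) and 0.07 (SE 0.13), and at 0.18 and -0.06 without aged mouse 1, and did not pass. Id1 was at 56.1 CPM in aged mouse 1 and from 10.95 to 22.3 CPM in the other aged mice, beside 8.36 to 15.3 CPM in young mice. Furin, a protease that trims hepcidin and its regulators, and Id2 were the most abundant of the list, with log2 fold changes of -0.11 and 0.21, or -0.19 and 0.32 without aged mouse 1, that did not pass. The hepcidin gene Hamp had 5, 0, 0 and 7 counts in aged mice 1 to 4, against 0, 1, 0 and 0 for young mice 1 to 4, too few to test.

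In the list on iron entry, reduction and export, 17 of 20 genes were tested, 0 rose and 1 fell, and the median log2 fold change was 0.03. Slc39a14 was at 34.0, 31.5, 33.6 and 49.7 CPM in aged mice 1 to 4, against 82.8, 65.2, 60.7 and 61.7 CPM for young mice 1 to 4. All aged mice were below all young mice, and aged mouse 4 was the nearest to them. Its change on the log2 scale was -0.86 (SE 0.16), with an adjusted p of 0.0390 by edgeR's quasi-likelihood test and 0.0361 without aged mouse 1.

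Lrp2 and Cubn, the megalin and cubilin receptors with which the proximal tubule recovers filtered transferrin, were the most abundant genes of that list. Lrp2 was at 3862 CPM in aged mouse 1, at 8734 to 10580 CPM in the other aged mice and at 9399 to 11166 CPM in young mice, so only that mouse stood clearly below the others. Lrp2 is also among the markers of the S1 and S2 segments summed above, so its level and the low sum of aged mouse 1 are not separate observations. Its log2 fold change was -0.34 (SE 0.28) and that of Cubn 0.19 (SE 0.15), with adjusted p of 0.473 and 0.435 by edgeR. Without aged mouse 1, which was the lowest of the 8 for both genes, Lrp2 was at -0.10 (SE 0.12) and Cubn at 0.32 (SE 0.08), with adjusted p of 0.627 and 0.0470 by edgeR. Cubn thus passed the adjusted p there, at a fold below 1.5. Slc40a1, whose hairpin site is printed above, had a log2 fold change of 0.29 (SE 0.20) and an adjusted p of 0.385 by edgeR, and without aged mouse 1 it was at 0.17 (SE 0.20), with an adjusted p of 0.625 by edgeR.

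Gclm stands in the list on control of ferroptosis, a cell death driven by iron, in which 7 of 10 genes were tested, 0 rose and 1 fell, with a median log2 fold change of -0.08. Gclm was at 107.4, 137.6, 123.9 and 201.2 CPM in aged mice 1 to 4, against 308.7, 255.3, 261.4 and 309.2 CPM for young mice 1 to 4. No aged mouse reached a young one. As a log2 fold change this was -0.99 (SE 0.19), with an adjusted p of 0.0372 by edgeR's quasi-likelihood test and 0.0274 without aged mouse 1. Gclc, the catalytic subunit of the same enzyme and the most abundant gene of the list, had a log2 fold change of -1.13 (SE 0.27) and an adjusted p of 0.0564 by edgeR, so it did not pass. It was called by DESeq2, with an adjusted p of 0.00087, by limma-voom, with 0.0351, and without aged mouse 4, with 0.0271 by edgeR. Over all genes these settings called more as well: 873 of 13944, 483 of 13944 and 733 of 14066, against 287 of 13944 in the main fit.

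The calls of Trfr2, Slc39a14 and Gclm were also lost when other mice were left out. Without aged mouse 2 the adjusted p by edgeR was 0.0725 for Trfr2, 0.0673 for Slc39a14 and 0.0673 for Gclm. Without aged mouse 3 it was 0.0697, 0.0726 and 0.0709. Without 1 young mouse it ran from 0.105 to 0.135 for Trfr2, from 0.0904 to 0.108 for Slc39a14 and from 0.0798 to 0.120 for Gclm. Calls over all genes also fell in these fits, from 287 to 119 without aged mouse 2 and 115 without aged mouse 3. Without 1 young mouse they fell to between 8 and 35. The call of Trfr2 was lost with no filter beyond 1 count in total (adjusted p 0.0531 by edgeR), and with at least 10 counts in every mouse the gene was not tested. No other gene of the 7 lists had an adjusted p below 0.05 in all 8 mice.

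**Figure D4:**
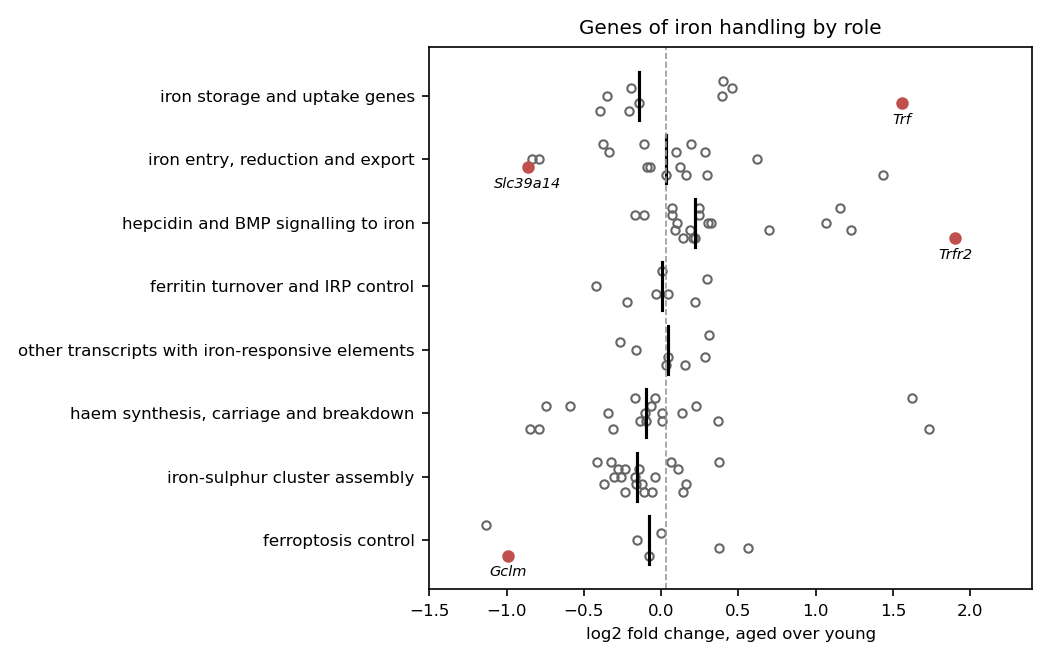
Log2 fold change of aged over young mice for every tested gene of the 9 and of 7 lists of iron handling, with each circle 1 gene, filled red where called changed, a black line at the median of each list and a dashed line at the median of all tested genes, 0.03. Trf and Trfr2 are the called genes to the right, and Slc39a14 and Gclm those to the left.

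In the list on ferritin turnover and control of the iron regulatory proteins, 7 of 8 genes were tested and 0 passed, with a median log2 fold change of 0.01. Pcbp2 and Skp1a were the most abundant. Pcbp2 is an iron chaperone that delivers iron, with a log2 fold change of 0.30 and an adjusted p of 0.106 by edgeR. Skp1a is a part of the ligase that degrades Ireb2, with a log2 fold change of -0.22 and an adjusted p of 0.122 by edgeR. Pcbp1, picked after its values were seen, went the other way from Pcbp2, at -0.42 (SE 0.10), with an adjusted p of 0.0531 by edgeR. Without aged mouse 1 Pcbp1 was at -0.34, with an adjusted p of 0.027 by edgeR and a fold below 1.5. All 7 other transcripts known to carry iron-responsive elements were tested and 0 passed, with a median log2 fold change of 0.04. Leaving out aged mouse 1, the medians of the list on entry, reduction and export, of that on ferritin turnover, of these transcripts and of the ferroptosis list were -0.02, -0.02, 0.13 and -0.16. Epas1, a hypoxia-inducible factor and among the most abundant of these, had a log2 fold change of 0.31 (SE 0.11) and an adjusted p of 0.130 by edgeR.

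Within the groups, the genes whose pattern over the 8 mice was most like that of Trf were Wdtc1, Abca8b, Efcab4a, Ano1 and Tcp11l2, with Pearson's r of log2 CPM from 0.979 to 0.991 after each group's mean was subtracted. Over the 7 mice other than aged mouse 1, r of these genes with Trf was 0.964 to 0.981. Among the 9 genes, r with Trf was 0.845 for Cp, 0.787 for Bmp6 and 0.759 for Hfe, and it was -0.698 for Ireb2, -0.584 for Ftl1, -0.544 for Tfrc and -0.459 for Aco1. Without aged mouse 1 these were 0.661, 0.493 and 0.471, and -0.118, -0.158, 0.631 and 0.032, so the negative values shrank toward 0 or turned. For Fth1 the most alike genes were Irf8, Acad12, Rnu73b, Spnb2 and Ribc1, with r from 0.923 to 0.963. These are descriptions over 8 mice that share a library for each pair of values, chosen as the highest of all tested genes, and aged mouse 1 is the most distant point for Trf.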

How the data were processed

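Per the labels and the methods of the study, the authors made stranded, ribosome-depleted, paired-end libraries, aligned them with TopHat2 to mm9, and counted read pairs per RefSeq gene with HTSeq. CASAVA 1.8.2 is named in the submitters' processing notes. The deposited values are raw counts per gene and mouse, not normalized, and the 8 tables of single mice were used. The table that joins them was not used. Pairs that align to several places do not enter such counts, which lowers genes with near-identical copies. Each library was taken as 1 mouse as labelled. The labels do not state the preparation date or batch.

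Counts were tested in edgeR 4.0.16 (R 4.3.3) with filterByExpr (minimum count 10), TMM scaling and the quasi-likelihood test over 4 aged and 4 young mice with no covariate, and p-values were adjusted over all 13944 genes. Changed means an adjusted p below 0.05 and a fold above 1.5. The authors used DESeq, and DESeq2 1.42.0 and limma 3.58.1 (voom) were alternatives here, beside other scalings, other filters, a replicate block and leaving out each mouse. The medians and correlations without aged mouse 1 were added after seeing the data. Scripts were tested on simulated data. The standard error is the log2 fold change divided by the root of the F statistic. CPM are TMM-scaled, and 3 counts, the limit that a count of 0 allows, equal 0.147 to 0.204 CPM. Such limits cover counting error only.

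Positions and sequences come from the NCBIM37 genome (mm9) and GENCODE vM1, and lengths from its longest transcript of each gene with both UTRs annotated, while the counts rest on RefSeq. Copies were sought with BLAST 2.17.0 at 98% identity over 100 nt. The 9 genes, the lists and the tests were chosen with earlier results of these data known. The text names all 9 genes, the called genes and the 2 most abundant of each list, and the 5 genes most like the 2 members with the smallest p. Results for a few genes that these rules would name are not reported here. Others are said to be picked after their values were seen.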

Additional observations from a re-analysis of the deposited data

Results flagged for a closer look

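Among 90 groups of 4 mice, the highest or lowest mouse lay far from the rest of its group (Dixon's ratio of gap to range above its critical value for 4) in 4, and chance alone gives about 4.5. None of the 4 was one of the 9 iron genes, and 2 of the 4 were in aged mouse 1. Aged mouse 4 was the highest of its group for Slc39a14, with a ratio of 0.863. Aged mouse 1 was the lowest for Cubn, with a ratio of 0.912. Young mouse 2 was the lowest of its group for Skp1a, with a ratio of 0.870. Aged mouse 1 was the highest for the summed markers of injured proximal tubule, with a ratio of 0.893.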

How the results depend on the processing

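Of 144 log2 fold changes of the 9 genes under alternatives, 137 kept their direction and their side of the threshold, 7 kept the direction but lost the call, all of Trf, and 0 turned. Of the 9 genes, 0 were called with at least 10 counts in every mouse (adjusted p of Trf 0.0508 by edgeR) and 0 with the replicate block (0.0507), and leaving out 1 mouse gave 0 to 1. Of the genes in the 7 lists, 11 were called by DESeq2 and 6 by limma-voom, and leaving out 1 mouse gave 0 to 5. Over all genes 488 were called with library size only, 873 by DESeq2, 483 by limma-voom and 130 with the replicate block. Leaving out 1 mouse gave from 8, without young mouse 1, to 733, without aged mouse 4. Without aged mouse 4, Epas1 and Lrp1 passed the adjusted p, at 0.0438 and 0.029 by edgeR, with folds below 1.5. With library size only, 75.4% of calls were higher in aged mice, against 56.8%, and the median of all genes shifted by 0.11. Signs turned, near 0, for Furin (0.0020 with library size only) and Hspa9 (0.00049 with upper-quartile scaling, 0.070 with library size only). They also turned with 1 mouse left out, where log2 fold changes ran from -0.197 to 0.048 for Abcg2 (turned without aged mouse 1), -0.076 to 0.0048 for Hspa9 (aged mouse 1), -0.0012 to 0.387 for Id2 (aged mouse 3) and -0.459 to 0.038 for Alas2 (young mouse 4). The cause was not tested. The numbers in the labels name different animals, and same-numbered mice deviated together by r of 0.206, 0.038, 0.199 and -0.0302, so the block is not a pairing of the mice. The block also ended the calls of Slc39a14 (adjusted p 0.0578 by edgeR) and Trfr2 (0.0563) but not of Gclm (0.0455), and it added a call of Gclc (0.0406). With 4 mice a group, differences as small as those of Ireb2 and Aco1 were not resolved.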

Other observations

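Haem takes up much of the iron of a cell. In the list on haem synthesis, carriage and breakdown, 19 of 20 genes in the tables were tested and 0 passed, with a median log2 fold change of -0.10, 7 genes above 0 and 12 below, and a median of -0.03 without aged mouse 1. Over all tested genes 54.1% lay above 0 and the median was 0.03. Alas1, the enzyme that starts haem synthesis outside red cells, was at 177.4, 78.3, 205.0 and 177.3 CPM in aged mice 1 to 4, against 331.1, 254.0, 297.2 and 219.8 CPM for young mice 1 to 4, all aged mice below all young mice. Its log2 fold change was -0.79 (SE 0.27), with an adjusted p of 0.119 by edgeR. The aged mice also lay below all young mice, without passing, for Uros, Slc46a1 and Slc48a1, and above them for Pgrmc1. In the list as a whole they lay below for 5 of 19 genes and above for 1, against 10% and 8.85% of all genes. Hmox1, haem oxygenase, which frees iron from haem, did not separate the groups: aged mouse 1, at 39.3 CPM, lay within the young range. The other aged mice lay below all young mice. Its log2 fold change was -0.85 (SE 0.36), with an adjusted p of 0.184 by edgeR. Without aged mouse 1 the log2 fold change was -1.14 (SE 0.34) and the adjusted p 0.0805 by edgeR. Alas1, Hmox1 and these others were picked after their values were seen. Abcg2 and Lrp1, the most abundant genes of the list, had log2 fold changes of -0.11 and 0.37 and did not pass.

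In the list on iron-sulphur cluster assembly, all 20 genes in the tables were tested and 0 passed. The median log2 fold change was -0.15, with 15 genes below 0 and 5 above, beside 54.1% above and a median of 0.03 over all genes. Without aged mouse 1 the median was -0.10, with 13 below 0 and 7 above. The aged mice lay below all young mice for 5 of the 20 and above them for 1, against 10% and 8.85% of all genes. Nfs1, the desulphurase that supplies the sulphur, and Fdx1, a ferredoxin of mitochondria, were among those 5. They had log2 fold changes of -0.37 (SE 0.09) and -0.41 (SE 0.10), with adjusted p of 0.0546 and 0.0652 by edgeR. Both were picked after their values were seen. Hspa9, the most abundant, had a log2 fold change of -0.04.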
